A study of Mus musculus with 4 samples.

Results

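The 10 genes described here encode the Gq class alpha subunits (Gnaq, Gna11), the Gs alpha subunit (Gnas), the adenylyl cyclases Adcy3, Adcy6, Adcy7 and Adcy9, and the protein kinase C isoforms Prkca, Prkcd and Prkce. They were taken by gene symbol, and all 10 were found among the 24527 symbols of the read count table. RNA-seq was performed on B16F10 mouse melanoma cells of WT genotype from 4 sources, each with 1 library: 2D monoculture (labelled control, monoculture below), 2D co-culture with NIH/3T3 mouse fibroblasts (co-culture below), spheroids of B16F10 and NIH/3T3 cells, and tumors grown in mice. The methods describe Linterna B16F10 cells, a line carrying a green fluorescent protein in the cytoplasm, sorted by flow cytometry from the cultures, and subcutaneous tumors in 1-year-old female C57BL/6 mice. The tumor cells are described there as sorted, whereas the library label reads snap frozen and its tissue tumor. The table holds 1 library per condition, so differences are described without tests or p-values, and the methods give n = 3 for the RNA isolation without saying whether RNA was pooled.

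Receptors of the G protein-coupled family pass their signal to heterotrimeric G proteins. Gq class alpha subunits activate phospholipase C beta, whose products release calcium and, through diacylglycerol, activate protein kinase C. The Gs alpha subunit activates adenylyl cyclases, which make cAMP, the activator of protein kinase A. In melanocytes, cAMP made downstream of the melanocortin receptor raises Mitf and pigment synthesis, and activating mutations of GNAQ and GNA11 are known from uveal melanoma.

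Gnaq and Gna11 are close relatives, so it matters for their counts whether reads can be told apart. Their coding sequences, 1077 bases each in GENCODE vM21 transcripts, were 80.5% identical, with 210 mismatches. The longest run shared by the transcripts was 38 bases, shorter than the reads of 150 bases.

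Promoter sequences of 300 bases, from RefSeq on GRCm38.p6, were matched for 8 of the genes, with 15 starts. Adcy6 and Prkce had no entry. Motifs were searched on both strands: TGACGTCA, the cAMP response element; TGACG, its core, which TGACGTCA contains; TGANTCA, the phorbol ester response element; and the E-boxes CATGTG and CACGTG. These letters are in 1.79%, 20.8%, 7.81%, 14.2% and 7.15% of 32851 promoters, in that order. TGACGTCA was in none of the 15 windows of 300 bases. The windows below run from 120 bases before to 30 bases after a start, on the strand of the gene, with a match in capitals. They show the upstream Prkcd start and a Gnas start, genes with their highest level in the spheroid, beside starts of Adcy7, whose spheroid level was less than that of both 2D cultures. CACGTG was at -106 of Prkcd (chr14:30626179-30626328, minus strand), and TGACG, on the opposite strand, at -38 of Gnas (chr2:174327629-174327778, plus strand). Other Gnas starts held CATGTG at -58, TGACG at -57 (the same site from a nearby start) and TGACG at -216. Which Gnas transcript each start belongs to was not examined. The Adcy7 starts shown held TGACG on the opposite strand at -28 (chr8:88282872-88283021, plus strand) and TGANTCA at -24 (chr8:88288946-88289095, plus strand).
Prkcd: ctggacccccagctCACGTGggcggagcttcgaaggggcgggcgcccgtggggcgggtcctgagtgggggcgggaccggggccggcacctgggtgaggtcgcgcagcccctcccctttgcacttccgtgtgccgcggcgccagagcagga
Gnas: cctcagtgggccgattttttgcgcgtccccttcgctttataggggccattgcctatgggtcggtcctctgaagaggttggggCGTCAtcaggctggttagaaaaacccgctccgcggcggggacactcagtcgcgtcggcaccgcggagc
Adcy7, first start: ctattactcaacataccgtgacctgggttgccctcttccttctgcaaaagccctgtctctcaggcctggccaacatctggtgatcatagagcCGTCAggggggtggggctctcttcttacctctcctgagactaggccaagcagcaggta
Adcy7, second start: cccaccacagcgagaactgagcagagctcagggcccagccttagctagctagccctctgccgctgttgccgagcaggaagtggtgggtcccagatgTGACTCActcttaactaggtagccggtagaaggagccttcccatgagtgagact
A match describes the letters only. Every window shown holds a match, and not every match is shown. Adcy3, also highest in the spheroid, held TGANTCA at -1 of a start, as TGAATCA, which is not the phorbol ester response element. Adcy9, highest in the monoculture, held TGACG at -24. A further Adcy7 start and the other Prkcd and Adcy3 starts held none of these motifs. Gnaq, Gna11 and Prkca windows held none of these motifs, and 75%, 75% and 75.3% of their bases were G or C.

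The libraries held between 118896900 and 150028663 reads, and levels are given as CPM, the reads on a gene relative to a common library total. The upper limit behind a count of 0, which is 3 reads, lay at 0.0185 to 0.0262 CPM. CPM values were scaled with TMM factors of 0.984 for the monoculture, 0.963 for the co-culture, 0.908 for the spheroid and 1.16 for the tumor. Intervals have a level of 95% and reflect the counting of reads alone. Each of the 10 genes had between 1817 and 314248 reads per library, and all 10 were among the 12728 genes averaging 1 CPM or more. Log2 ratios moved with base composition and transcript length over the whole table. Those of the 10 genes are therefore also given after a class correction, which removes the median ratio of genes of like G and C content and length.

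Markers were measured as a check of the labels. The 8 melanocyte markers had reads in every library and summed to 16911 CPM in the monoculture, 15306 in the co-culture, 11420 in the spheroid and 20122 in the tumor. The tumor library also held markers of other cells: 12 myeloid markers summed to 2037 CPM against 10.5 to 29.98 in the cultures, and 8 fibroblast markers to 2718 CPM against 17.6 in the monoculture, 679 in the co-culture and 36.5 in the spheroid. Skeletal muscle markers (5 genes) summed to 4599 CPM in the tumor and 3.28 to 12.4 in the cultures, adipocyte markers (3 genes) to 216 and 0.197 to 0.448, and lymphoid markers (8 genes) to 6.48 and 0.0524 to 0.213. The 8 endothelial markers summed to 353 CPM in the tumor and 272 to 333 in the cultures, where Eng alone gave 270 to 328 CPM. Cd14, Myh4, Ms4a1, Nkg7 and Ncr1 were at 0 reads in the monoculture, Cd3e, Cd8a, Ms4a1 and Ncr1, among others, in the co-culture, and Ms4a1 and Ncr1 in the spheroid; no marker was at 0 in the tumor. Every comparison with the tumor below is a comparison with this mixture, in which fewer melanoma cells and less RNA per cell cannot be told apart. The part of the other cells in the results was not tested. All 8 fibroblast markers were also higher in the co-culture than in the monoculture, with a median log2 ratio of 2.49. The part of fibroblast RNA in the co-culture ratios below was not tested either.

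Of the Gq class, Gna11 was the more abundant member and, as counted, Gnaq the steadier one. After the class correction Gnaq was not the steadier. Its log2 ratios to the tumor then ran from -0.05 to 0.78, and those of Gna11 from 0.21 to 0.45. Gnaq (chr19:16132831-16387463, plus strand) had 49.1 CPM in the monoculture, 58.8 in the co-culture, 44.1 in the spheroid and 37.2 in the tumor, a range of 1.58-fold. Gna11 (chr10:81528724-81545190, minus strand) had 177, 173, 225 and 67.4 CPM in the same order, so its spheroid level was 3.34-fold that of the tumor. Between spheroid and tumor the log2 ratio was 1.74 (interval 1.71 to 1.77) for Gna11 and 0.24 (0.19 to 0.30) for Gnaq. With total counts in place of TMM factors, the Gnaq ratio was -0.11. The 2D cultures were nearly level for Gna11, with a log2 ratio of co-culture to monoculture of -0.03 (-0.06 to -0.01), a sign that upper quartile factors turned.

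The balance of the pair differed between libraries in the counts, whatever the scaling of libraries. After the class correction the order of the pair turned, with log2 ratios of spheroid to tumor of 0.21 for Gna11 and 0.63 for Gnaq, and of spheroid to monoculture of -0.31 and 0.46. Gna11 took 78.3% of the reads of the pair in the monoculture, 74.7% in the co-culture, 83.7% in the spheroid and 64.5% in the tumor. That is 3.61 Gna11 reads for each Gnaq read in the monoculture, 2.95 in the co-culture, 5.12 (interval 4.98 to 5.26) in the spheroid and 1.81 (1.76 to 1.87) in the tumor. Per transcript length, the ratios were 5.97, 4.87, 8.46 and 3.00. As counted, the spheroid and the tumor held the extremes of the pair. The other genes of the class, Gna14 and Gna15, added little: Gnaq and Gna11 took 99.6% to 99.8% of the reads of the 4 genes in the cultures and 97.9% in the tumor.

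Gnas, which encodes the Gs alpha subunit, was the most abundant of the 10 genes. It lies at chr2:174284320-174346744 (plus strand), a locus with several promoters and imprinted products that the counts do not separate. Its level was 1276 CPM in the monoculture, 1403 in the co-culture, 2308 in the spheroid and 707 in the tumor. The spheroid stood above both 2D cultures, with log2 ratios of 0.85 (0.85 to 0.86) to the monoculture and 0.72 (0.71 to 0.73) to the co-culture, and the tumor below all of them as counted. The class correction left log2 ratios to the tumor of 0.65 in the spheroid, 0.11 in the co-culture and -0.27 in the monoculture. The Gnas class rests on a length of 9.449 kb, the merged exons of 9 transcripts, which may not be that of the transcripts counted. Genes on the opposite strand share exonic bases with Gnas. Nespas, which covers 10.5% of them, had 0 reads in each culture and 6 in the tumor. Gm20721, which covers 15.5%, had no entry under that symbol in the read count table. Whether the counting used strand is not given in the sources used here.

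**Figure D1:**
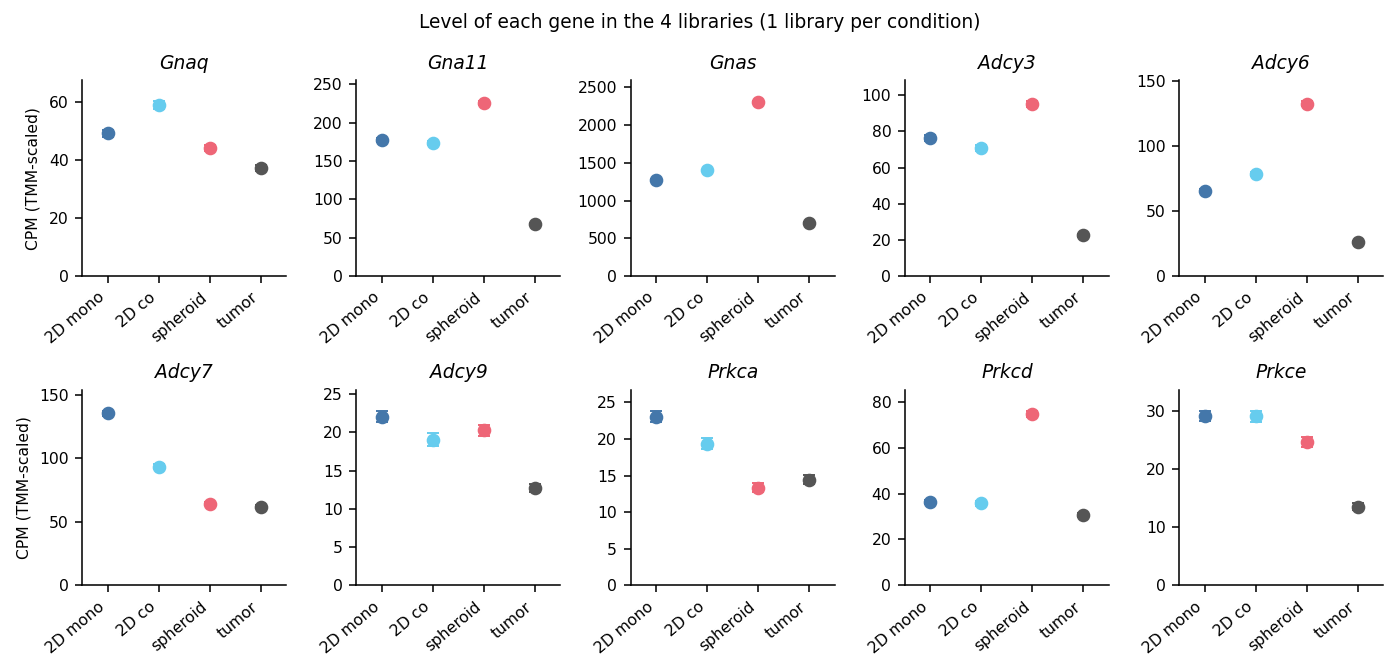
Level of each of the 10 genes in CPM (linear axis from 0, its scale set per gene) in the 4 libraries, 1 point per library, with 95% counting intervals as bars. The tumor point is the lowest in 9 of 10 panels, Prkca being the exception (with total counts also Gnaq, Adcy7 and Prkcd, with upper quartile factors Adcy7, and after the class correction Gnaq, Gnas, Adcy7, Adcy9 and Prkcd in place of Prkca). The spheroid point is the highest for Gna11, Gnas, Adcy3, Adcy6 and Prkcd (after the class correction, Prkce in place of Gna11).

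The adenylyl cyclases divided into Adcy3 and Adcy6, highest in the spheroid, and Adcy7 and Adcy9, highest in the monoculture. Adcy6, a calcium-inhibited cyclase at chr15:98589973-98610076 (minus strand), had 65.6 CPM in the monoculture, 78.2 in the co-culture, 132 in the spheroid and 26.4 in the tumor. Its spheroid level was 5.01-fold that of the tumor, the widest range of the 10 genes, and 2.02-fold that of the monoculture. Adcy3 (chr12:4133103-4213525, plus strand), known for odorant signalling and cilia, had 76.3, 70.8, 95.1 and 22.5 CPM in the same order. Against the tumor, the spheroid had a log2 ratio of 2.08 (2.02 to 2.13), and against the monoculture one of 0.32 (0.28 to 0.35). Cenpo overlaps 29.2% of the Adcy3 exonic bases on the opposite strand and was itself lower in the spheroid, at 6.87 CPM against 15.7 in the monoculture and 18.7 in the tumor. For Adcy6 an antisense gene, Gm29331, covers 10.02% of the exonic bases and had no entry under that symbol in the read count table.

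Adcy7, a cyclase that protein kinase C and G beta gamma subunits can stimulate, went the other way. At chr8:88272403-88329962 (plus strand), it had 136 CPM in the monoculture, 93.4 in the co-culture, 64.4 in the spheroid and 61.8 in the tumor. The spheroid level was 0.474 of the monoculture level, a log2 ratio of -1.08 (-1.11 to -1.04), and lay near the tumor level, with a log2 ratio of 0.06 (0.02 to 0.10). That small difference changed sign with total counts and with upper quartile factors. Adcy9 (chr16:4287529-4420498, minus strand), a cyclase little sensitive to forskolin, varied least of the cyclases, with 22.0, 19.0, 20.2 and 12.7 CPM. Its log2 ratio of spheroid to co-culture was 0.09 (0.01 to 0.17), close to the limit of counting error.

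The make-up of the cyclase reads held less Adcy7 and more Adcy6 in the spheroid than in the other libraries. Adcy7 took 45.3% of the reads of the 4 genes in the monoculture, 35.7% in the co-culture, 20.6% (interval 20.3 to 21.0) in the spheroid and 50.1% (49.4 to 50.8) in the tumor. Adcy6 took 21.9%, 29.9%, 42.4% and 21.4% in the same order. Adcy3 held between 18.3% in the tumor and 30.5% in the spheroid, and Adcy9 between 6.49% in the spheroid and 10.3% in the tumor. In these shares the tumor lay nearer to the monoculture than to the spheroid for Adcy6 and Adcy7, although the Adcy7 CPM value itself was nearest in the spheroid. The 4 genes made up 99.3% to 99.5% of the reads of all 10 cyclases in the cultures and 84.8% in the tumor. Most of the remainder was Adcy4, with 7.19 CPM in the tumor and 1 or 2 reads in each culture, Adcy5, with 8.001 CPM in the tumor and 0.0562 to 0.110 in the cultures, and Adcy2, with 5.03 CPM in the tumor and 1.30 to 1.54 in the cultures.

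**Figure D2:**
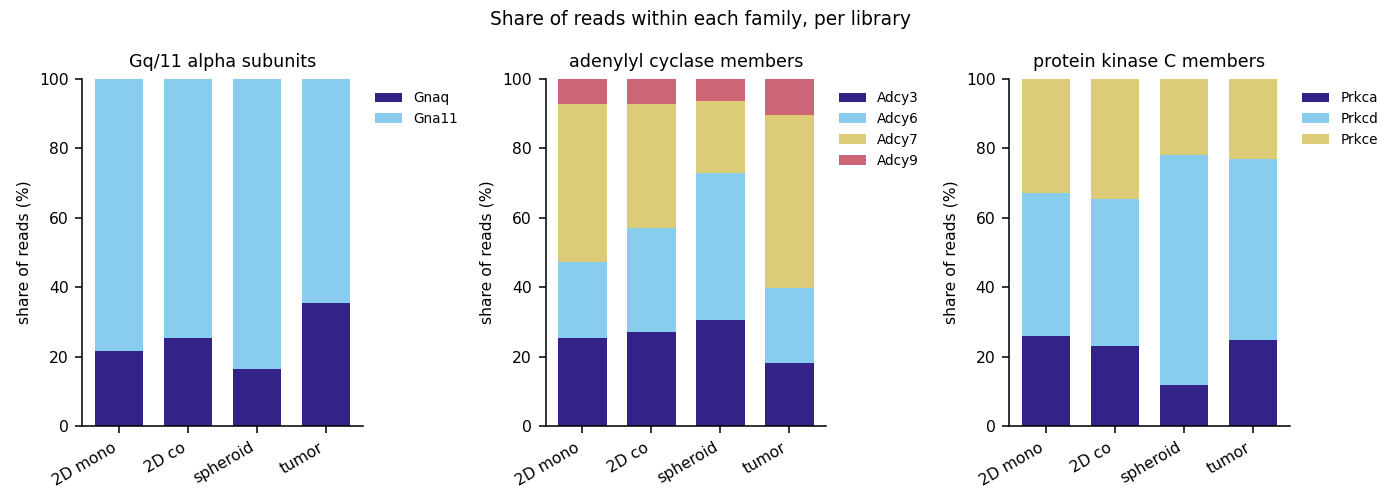
Share of reads (%, linear axis from 0 to 100) taken by each gene within the Gq/11 pair, the 4 adenylyl cyclases and the 3 protein kinase C isoforms, as 1 stacked bar per library. The Adcy7 segment shrinks to 20.6% and the Prkcd segment grows to 66.3% in the spheroid bar.

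The protein kinase C isoforms had 3 different patterns. Prkcd, which needs diacylglycerol but not calcium, lies at chr14:30595354-30626210 (minus strand) and had 36.4 CPM in the monoculture, 35.7 in the co-culture, 74.6 in the spheroid and 30.5 in the tumor. The spheroid stood alone at 2.05-fold the monoculture, 2.09-fold the co-culture and 2.45-fold the tumor, while the 2D cultures did not differ beyond counting error (log2 ratio -0.03, interval -0.09 to 0.03). Prkca (chr11:107933387-108343928, minus strand), the calcium-dependent isoform, had 23.1, 19.4, 13.3 and 14.4 CPM. With TMM factors it was the only one of the 10 genes with its lowest level in the spheroid (with total counts Gnaq and Adcy7 were lowest there too, and with upper quartile factors Adcy7), at a log2 ratio of -0.79 (-0.87 to -0.71) to the monoculture and -0.11 (-0.20 to -0.02) to the tumor. The class correction turned these ratios to 0.36 and 0.88.

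Prkce (chr17:86167785-86657919, plus strand), also independent of calcium, had 29.1 CPM in the monoculture, 29.0 in the co-culture, 24.5 in the spheroid and 13.5 in the tumor. The 2D cultures did not differ beyond counting error here either (interval of the log2 ratio -0.07 to 0.06), and the tumor was lowest, the spheroid having 1.82-fold its level. Of the reads of the 3 isoforms, Prkcd took 41.1% in the monoculture, 42.5% in the co-culture, 66.3% (65.6 to 67.1) in the spheroid and 52.2% in the tumor, and Prkca 26.0%, 23.0%, 11.9% and 24.7%. After the class correction the log2 ratios of spheroid to tumor were alike for Prkcd (0.87) and Prkca (0.88) and higher for Prkce (1.35). The larger Prkcd share than in the tumor was thus not kept, and Prkca was no longer lowered relative to Prkcd, only relative to Prkce. The 3 isoforms made up a minority of the reads of the 9 isoform genes outside the spheroid: 37.9% in the monoculture, 28.1% in the co-culture, 51.5% in the spheroid and 36.8% in the tumor. The rest in the cultures was mainly Prkci, an atypical isoform with 79.7, 104, 43.5 and 43.6 CPM, and Prkcq, an isoform best known from T cells, with 57.3, 103, 50.4 and 20.3 CPM.

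Levels of different genes can be set side by side only per length. Length here is that of the merged exons of a gene's annotated transcripts. In CPM per kilobase, Gnas had 135, 148, 244 and 74.8 in the monoculture, co-culture, spheroid and tumor. Gna11 followed with 51.9, 50.8, 66.04 and 19.8. For Gnas the merged length was 9.449 kb over 9 transcripts. It can exceed that of any single transcript, so the Gnas values per kilobase may be too low. Prkca was lowest in each library, with 2.74, 2.30, 1.59 and 1.71. Adcy7 led the 4 cyclases in the monoculture (21.8 CPM per kilobase) and the tumor (9.95), and Adcy6 in the spheroid (21.9), while Adcy7 and Adcy3 were level at 15.0 in the co-culture. Prkcd led the 3 kinase C isoforms in each library, with 12.7, 12.5, 26.1 and 10.7.

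The comparisons with the tumor put most of the 10 genes higher in culture. On the scale of log2(CPM + 1), 5 genes were past 2-fold higher in the spheroid than in the tumor (Gna11, Gnas, Adcy3, Adcy6, Prkcd) and 0 lower. Over all genes, 26.8% were past 2-fold higher and 27.6% lower. Against the tumor, the co-culture had 4 past 2-fold higher (Gna11, Adcy3, Adcy6, Prkce) and 0 lower, where the background was 18.8% and 20.9%. The monoculture had 5 past 2-fold higher (Gna11, Adcy3, Adcy6, Adcy7, Prkce) and 0 lower, where it was 18.2% and 14.8%. The median log2 ratio of the 10 genes was 1.04 for the spheroid, 0.82 for the co-culture and 0.95 for the monoculture, against 0.08, 0.11 and 0.14 over all genes. With the class correction, under which the median of all genes is 0, the medians were 0.74, 0.40 and 0.40, and the genes past 2-fold higher numbered 2, 1 and 0. With total counts or upper quartile factors, 3 were past 2-fold higher in the monoculture. Shares of all genes past 2-fold under these alternatives are not given here. The tumor was the lowest library for 9 of the 10 genes and for 39.6% of all genes, although with total counts the spheroid lay below it for Gnaq and Adcy7 and the co-culture for Prkcd, and with upper quartile factors the spheroid for Adcy7. After the class correction at least 1 culture lay below the tumor for Gnaq, Gnas, Adcy7, Adcy9 and Prkcd: the monoculture for Gnaq (-0.05), Gnas (-0.27), Adcy9 (-0.08) and Prkcd (-0.21), the co-culture for Adcy9 (-0.40) and Prkcd (-0.11), and the spheroid for Adcy7 (-0.15) and Adcy9 (-0.34). These comparisons share the tumor library, so they are not separate evidence.

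Between cultures the differences were smaller. From monoculture to spheroid, Adcy6 and Prkcd were past 2-fold higher, against 11.2% of all genes, and Adcy7 past 2-fold lower, against 17.9%. Adcy6 lay on the threshold, with a log2 ratio of 1.01 (0.98 to 1.05). The median of the 10 genes was 0.10, against 0.05 over all genes, and 0.41 after the class correction, against 0. Both higher calls were lost with total counts, with the class correction and with a pseudocount of 5 CPM, and the Adcy7 call was lost with upper quartile factors. From monoculture to co-culture, 0 genes were past 2-fold in either direction, where 3.79% of all genes were higher and 9.51% lower, and the log2 ratios lay between -0.54 for Adcy7 and 0.26 for Gnaq. From co-culture to spheroid, Prkcd alone was past 2-fold higher, against 9.54% of all genes, and 0 were lower, against 8.46%. That call too was lost with total counts, with the class correction and with a pseudocount of 5 CPM. The spheroid was the highest library for 5 of the 10 genes and for 34.7% of all genes. After the class correction it was no longer highest for Gna11, with log2 ratios of -0.31 to the monoculture and -0.16 to the co-culture. It was then highest for Prkce, with 0.41 and 0.23.

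**Figure D3:**
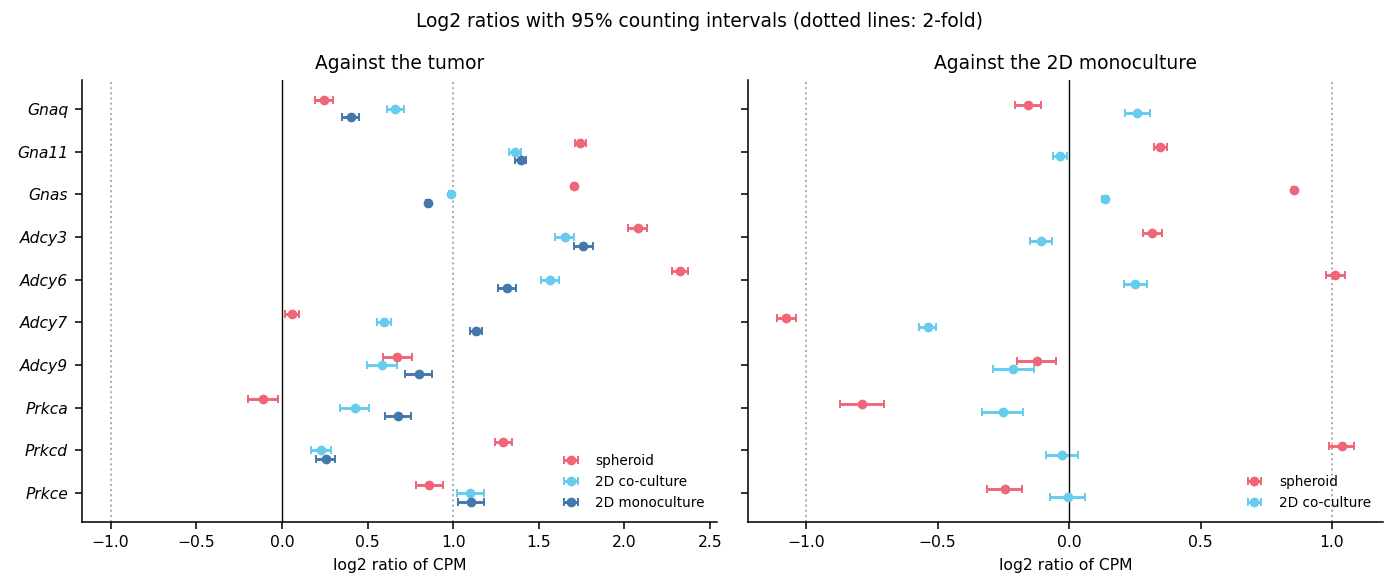
Log2 ratios of CPM of the 10 genes, to the tumor (left) and to the monoculture (right), with 95% counting intervals as bars and dotted lines at 2-fold. In the left panel the spheroid point of Prkca is the only one below 0 (with total counts, those of Gnaq and Adcy7 and the co-culture point of Prkcd are too, and with upper quartile factors that of Adcy7), and in the right panel Adcy6, Prkcd and Adcy7 reach the dotted lines in the spheroid.

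The series asks which culture resembles the tumor. The spheroid was the culture nearest to the tumor for 4 of the 10 genes (Gnaq, Adcy7, Prkca, Prkce) and for 19.1% of all genes. After the class correction it was nearest for 1 of the 10, which was none of these but Gna11. Its corrected log2 ratios to the tumor were 0.21 in the spheroid, 0.28 in the co-culture and 0.45 in the monoculture. The share of all genes under the correction is not given here. Without the correction, the co-culture was nearest for another 4 (Gna11, Adcy3, Adcy9, Prkcd) and the monoculture for 2 (Gnas, Adcy6). Gnaq, Prkca and Adcy7 were picked by the study on these same libraries for a like level in spheroid and tumor, so their place among the 4 is no independent evidence. For Prkce, the spheroid was nearest while still 1.82-fold above the tumor.

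Log2 ratios moved with base composition and length over the whole table, which bears on these genes. Across 12466 genes, which are not independent replicates, Spearman's rho between the G and C content of the transcripts and the log2 ratio was 0.55 for spheroid to tumor and 0.491 for spheroid to monoculture. With transcript length it was -0.14 and -0.397, and the parts of composition and length were not separated. The 10 genes ran from 46.4% (Prkca) and 46.9% (Gnaq) to 57.2% (Gna11) and 57.7% (Gnas). In the class of genes of like G and C content and length, the median log2 ratio of spheroid to tumor was 1.53 for the class of Gna11 and -0.99 for that of Prkca. After removal of the class medians, the ratios of spheroid to tumor were 1.31 for Adcy6, 0.97 for Adcy3, 0.87 for Prkcd and 0.65 for Gnas. They were 0.21 for Gna11, -0.15 for Adcy7, -0.34 for Adcy9, 0.63 for Gnaq, 0.88 for Prkca and 1.35 for Prkce. The signs of Adcy7, Adcy9 and Prkca thus turned, Prkce passed 2-fold, and Gna11, Gnas, Adcy3 and Prkcd no longer did. In the comparison of spheroid and monoculture, Adcy7 (-1.05), Prkcd (0.98), Adcy6 (0.89) and Gnas (0.72) kept most of their ratio, while Gnaq, Gna11, Prkca and Prkce changed sign, to 0.46, -0.31, 0.36 and 0.41.

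**Figure D4:**
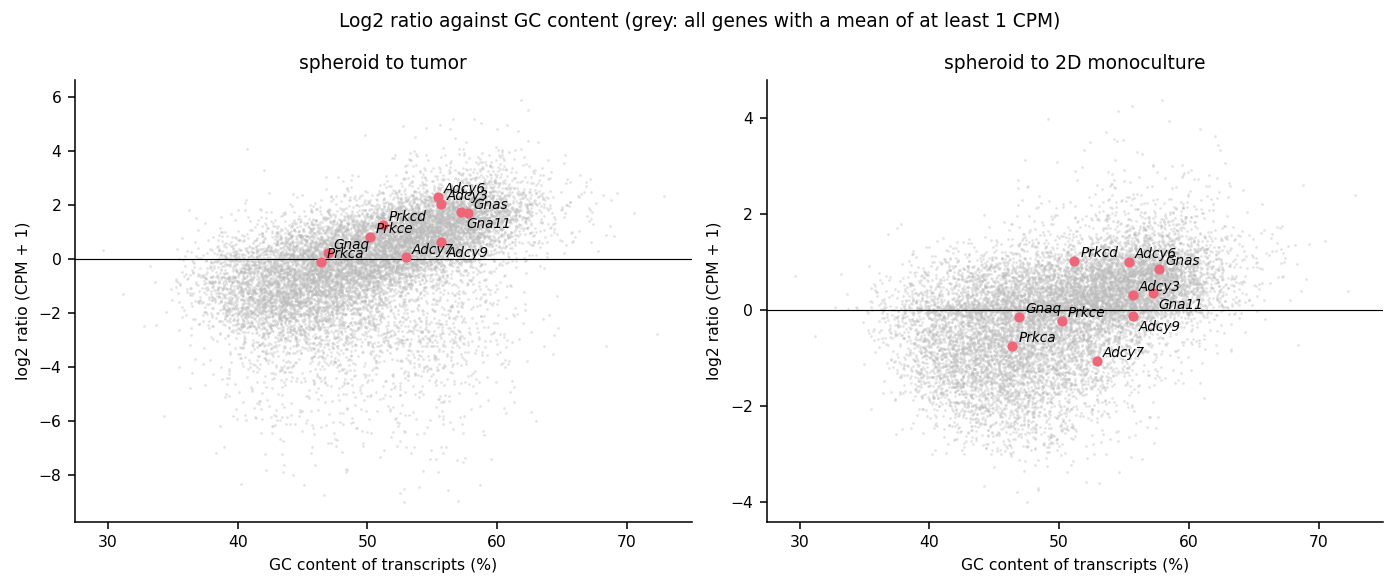
Log2 ratio (CPM + 1) against the G and C content of transcripts (%), for spheroid to tumor (left) and spheroid to monoculture (right), with all genes averaging 1 CPM or more in grey and the 10 genes in red. The cloud slopes upward in both panels, with Prkca and Gnaq at its left and Gna11 and Gnas to the right. Adcy7 lies below the cloud's centre in the right panel.

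Scaling set the level of every comparison with the tumor. With total counts in place of TMM factors, the log2 ratio of every gene to the tumor moved by -0.36 for the spheroid, -0.27 for the co-culture and -0.24 for the monoculture. With upper quartile factors the shifts were -0.13, -0.13 and -0.25, and the ratio of co-culture to monoculture moved by 0.12. Among all genes past 2-fold, the share higher than in the tumor was 49.2%, 47.3% and 55.2% for these cultures, and 36.7%, 32.6% and 40.1% with total counts, and with upper quartile factors it was 39.5% for the monoculture. From monoculture to co-culture it was 28.5%, and 39.0% with upper quartile factors. Of the 10 genes, Gnaq, Adcy7 and Prkca were then lower in the spheroid than in the tumor with total counts, and Prkcd was lower in the co-culture than in the tumor. The order of genes within a library does not depend on these factors.

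Pathway genes were ranked by their likeness to the 10 over the 4 libraries. Likeness was taken as the Euclidean distance of log2(CPM + 1), centred per gene, among the 90 other pathway genes averaging 1 CPM or more. A nearest gene is thus the smallest of 90 distances over 4 libraries, without the class correction. Distances over all genes are not given here, so how unusual these values are was not tested. Nearest to Adcy6 was Gng7, a G gamma subunit, at a distance of 0.0929, with 41.6, 49.9, 81.1 and 15.3 CPM. Nearest to Gnas was Prkaca, the catalytic alpha subunit of protein kinase A, at 0.139, with 58.7, 62.2, 101 and 34.5 CPM. Gnaq was nearest to Prkacb, the catalytic beta subunit, at 0.157, with 81.1, 101, 78.0 and 71.6 CPM. Prkca was nearest to Ptger1, a prostaglandin receptor, at 0.262, with 30.1, 24.2, 21.2 and 18.2 CPM. Ptger1 too was picked by the study on these libraries. Among the 10 genes themselves the closest pair was Gna11 and Adcy3, at 0.264, then Adcy7 and Prkca, at 0.346, and Adcy9 and Prkce, at 0.361.

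The remaining genes of the pathway were divided in direction. Of 115 genes in role lists, 90 averaged 1 CPM or more, and 27 were past 2-fold higher and 27 lower in the spheroid than in the tumor, with a median log2 ratio of -0.10. Over all genes these shares were 26.8% and 27.6%, against which every count of a role list below is to be read. Levels and ratios of these genes are as counted, and no class-corrected values are given for them. From monoculture to spheroid, 11 were higher and 9 lower, with a median of 0.04, where the shares over all genes were 11.2% and 17.9%.

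Of 7 other alpha subunits measured, 3 were past 2-fold higher and 2 lower in the spheroid than in the tumor (26.8% and 27.6% of all genes). Gnai2, an inhibitory subunit and the most abundant of them, had 488 CPM in the monoculture, 573 in the co-culture, 824 in the spheroid and 312 in the tumor. Gna12 had 70.7, 81.2, 139 and 30.7, and Gnao1 had 48.8, 55.6, 86.0 and 15.6. Gnai3 went the other way, with 91.5, 78.4, 39.8 and 141 CPM, and Gnai1 had 9.02 CPM in the tumor and between 1 and 5 reads in each culture. Of 12 beta and gamma subunits, 5 were past 2-fold higher and 2 lower, led by Gng8 (4.06, 5.60, 12.0 and 1.03 CPM).

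Of the 4 phospholipase C beta genes, the direct targets of Gq, Plcb3 was past 2-fold higher in the spheroid than in the tumor, and Plcb1 and Plcb4 were lower. Plcb3 was level in the cultures, at 114, 115 and 109 CPM, against 32.9 in the tumor. Plcb4 had 9.41 CPM in the monoculture, 2.06 in the co-culture, 1.64 in the spheroid and 15.9 in the tumor. Downstream, the inositol trisphosphate receptor Itpr1 had a like pattern with 58.1, 17.6, 7.67 and 58.4 CPM, a log2 ratio of spheroid to monoculture of -2.92 (-3.01 to -2.83). Both genes were thus much lower in the spheroid and in the co-culture than in monoculture and tumor alike. Itpr1 is in a list of 17 receptors, diacylglycerol kinases and other effectors. Of these, 4 were past 2-fold higher and 3 lower in the spheroid than in the tumor. Arhgef25, an exchange factor that Gq activates, had 24.1, 34.7, 69.9 and 15.4 CPM.

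On the cAMP side, 2 of 6 protein kinase A subunits were past 2-fold higher in the spheroid than in the tumor (Prkaca, Prkar1b) and 1 lower (Prkar2b), beside 26.8% and 27.6% of all genes. Of 8 phosphodiesterases, which degrade cAMP, 1 was higher (Pde4a, 15.8, 14.8, 27.2 and 4.90 CPM) and 4 lower. Pde3b had 0 reads in the spheroid, where a count of 0 allows 0.0220 CPM, and 10.2 CPM in the tumor. Of 8 other cAMP effectors, 3 were higher, all of them coactivators of Creb1 (Crtc1, Crtc2, Crtc3), and 2 lower, Creb1 itself and the exchange factor Rapgef4. Crtc2 had 108, 116, 178 and 37.1 CPM and Creb1 55.4, 46.5, 29.0 and 91.7, so as counted Crtc2 was highest and Creb1 lowest in the spheroid. Crtc3 was also highest there, at 50.0 CPM, while Crtc1 was level in the cultures, at 31.7, 31.9 and 31.4 CPM. All 3 other cyclases measured and 2 of 6 other protein kinase C isoforms, Prkcb and Prkch, were lower in the spheroid than in the tumor. Prkcb, the isoform of many blood cells, had 2 or 3 reads per culture and 9.76 CPM in the tumor.

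Regulators and receptors completed the set. Of 16 regulators, 7 were past 2-fold higher and 5 lower in the spheroid than in the tumor, beside the same 26.8% and 27.6% of all genes. Rgs16, which shortens Gq and Gi signals, had 50.3, 81.4, 124 and 10.6 CPM, and Arrb2, a beta arrestin, had 23.6, 36.4, 81.4 and 28.4. Rgs5, a pericyte gene, had 94.9 CPM in the tumor and 0.103 to 0.267 in the cultures. Mc1r, the melanocortin receptor coupled to Gs, had 185, 145, 70.5 and 129 CPM, so its spheroid level was lowest while Gnas and Adcy6 were highest there. Mitf, which lies downstream of cAMP, had 416, 223, 70.3 and 708 CPM in the same order. Of 3 receptors measured, 0 were past 2-fold higher and 1 lower in the spheroid than in the tumor. The lower one was Ednrb, the endothelin receptor coupled to Gq, with 73.5 CPM in the tumor and 1 to 21 reads in each culture.

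**Figure D5:**
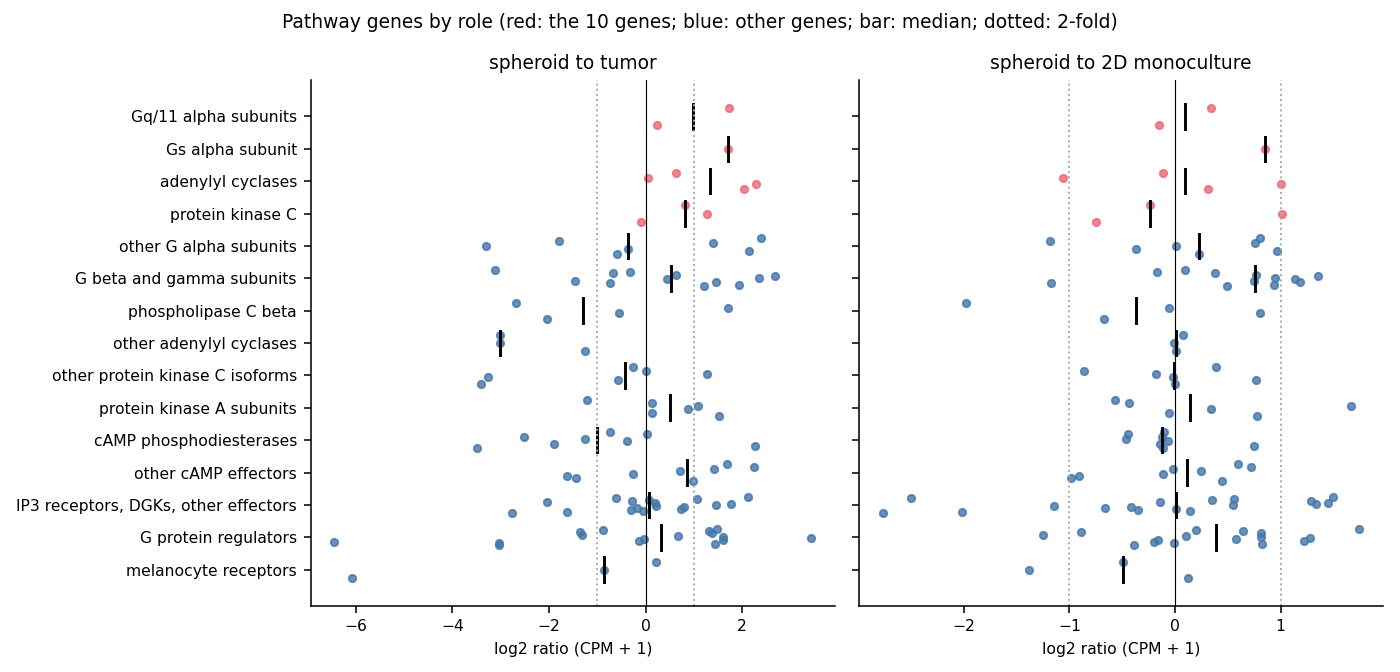
Log2 ratio (CPM + 1) of the 10 genes (red) and 90 other pathway genes (blue), 1 point per gene, by role, for spheroid to tumor (left) and spheroid to monoculture (right), with black bars at the median of each role and dotted lines at 2-fold. The other adenylyl cyclases lie to the left of 0 in the left panel, opposite to the adenylyl cyclases among the 10 genes.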

How the data were processed

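Poly(A)-selected RNA was sequenced as paired-end reads of 150 bases. The authors deposited raw read counts per gene symbol for 4 libraries, 1 per condition, without normalization. The submitters' processing notes name Trimmomatic, STAR, featureCounts and mm10, with versions, settings and strand use not given in the sources used here. CPM values were computed with TMM factors from edgeR 4.0.16 in R 4.3.3, and DESeq2 1.42.0 gave size factors for an alternative. Other steps used Python 3.11.15, numpy 2.4.6, pandas 2.3.3, scipy 1.17.1 and matplotlib 3.10.9. No test was made, since each condition has 1 library. CPM intervals are exact Clopper-Pearson intervals, and those of log2 ratios, taken without a pseudocount, come from the exact binomial interval for how the reads of a pair of libraries divide. Counts past 2-fold and medians use a pseudocount of 1 CPM and genes averaging 1 CPM or more. Lengths, G and C content (10 by 10 classes) and positions came from GENCODE vM21 (GRCm38, the same assembly as mm10). Length is that of the merged exons of a gene's transcripts, those paired with RefSeq where there were any. The 10 genes, the role and marker lists and the alternatives were chosen with earlier results of these data known. Genes named from a role list are that list's most abundant gene and its extremes of the spheroid ratios to tumor and to monoculture, and the genes nearest to a member in pattern. Gna14, Gna15, Prkch, Plcb1, Crtc1, Crtc3, Eng, Mitf and the markers at 0 were named after their values were seen. Some items are not reported here. Calculations were tested on simulated data.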

Additional observations from a re-analysis of the deposited data

How the results depend on the processing

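No replicate check exists, and counting intervals do not cover differences between cultures or animals. No paired analysis was possible because no condition has more than 1 library. With DESeq2 size factors and without a pseudocount, every count and median of the 10 genes stayed within 1.5 times of its value, or on its side of 0.

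Counts of genes past 2-fold moved as follows. After removal of the medians of G and C content and length classes, the genes higher than in the tumor numbered 2 for the spheroid, 1 for the co-culture and 0 for the monoculture, those higher in the spheroid 0 against either 2D culture, and those nearest to the tumor in the spheroid 1. With total counts, 3 were higher in the monoculture than in the tumor, and 0 in the spheroid than in either 2D culture. With upper quartile factors, 3 were higher in the monoculture than in the tumor and 0 lower in the spheroid than in the monoculture. A pseudocount of 5 CPM left 0 higher in the spheroid than in either 2D culture. At a threshold of 1.5-fold, 7 were higher in the co-culture and 8 in the monoculture than in the tumor, 2 were lower in the spheroid than in the monoculture and 3 higher than in the co-culture. The shares of all genes past the threshold under these settings are not given here. Of all genes past 1.5-fold, 53.5% were higher in the co-culture and 58.3% in the monoculture than in the tumor. Of those past 2-fold after the class correction, 44.0%, 31.4% and 25.9% were higher in the spheroid, co-culture and monoculture. Medians changed sign for spheroid to monoculture with total counts (-0.015), and for co-culture to monoculture with upper quartile factors (0.085) and after the class correction (0.10). Beyond the construction of each setting, the cause was not tested.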
